A study of Homo sapiens with 12 samples.

Results

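The insulin-like growth factor (IGF) axis was examined in A549 cells, an established human lung adenocarcinoma line, through 10 genes: the protease PAPPA, the ligand IGF2, the receptors IGF1R and IGF2R, and the binding proteins IGFBP1, IGFBP2, IGFBP3, IGFBP4, IGFBP6 and IGFBP7. They are the rows of the deposited count table that carry these symbols, 10 of 60623 genes. The genes were chosen by their symbols as parts of this axis, with the measured differences of PAPPA and of the other genes between the 4 lines already known. Their values are therefore given as a description, without p-values, and support nothing by themselves. Calls of these genes by a threshold of adjusted p, also with libraries left out, are part of that description.

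Poly(A) RNA-seq had been performed on 4 stable derivatives of A549, with 3 libraries each and 12 in all, to ask what phosphorylation of the aryl hydrocarbon receptor (AHR, a ligand-activated transcription factor) at serine 489 does to the transcriptome. All 4 were made by lentiviral infection and hygromycin selection, and all keep the endogenous AHR gene. V carries the empty pLV-EF1a-IRES-Hygro vector, WT carries HA-tagged wild-type AHR, SA carries HA-AHR with serine 489 changed to alanine, which cannot be phosphorylated there, and SD carries HA-AHR with serine 489 changed to aspartate, a phosphomimetic change. The EF1a promoter drives the transgene, no AHR ligand is named in the labels, and each construct is represented by a single line, so that an effect of the construct and a property of that line cannot be told apart.

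IGF1 and IGF2 signal through IGF1R, a receptor tyrosine kinase, by way of IRS and SHC adaptors and the PI3K, AKT and mTOR pathway. IGF2R, the cation-independent mannose 6-phosphate receptor, takes up IGF2 and delivers it to lysosomes. Most IGF outside cells is held by binding proteins of the IGFBP family. PAPPA is a secreted metalloproteinase that cuts IGFBP4 and so frees the bound IGF, and the secreted glycoproteins STC1 and STC2 inhibit PAPPA.

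PAPPA was highest in SD and lowest in WT. It was 1.35-fold higher in SD than in WT and 1.24-fold higher in SD than in SA, and it was 0.804 times the V level in WT. The difference between SD and SA kept its call in only 2 of the 6 fits with 1 library left out. IGF1R followed the same order of lines over a smaller range. IGFBP3 and IGFBP7 were also lower in WT than in V, but IGFBP7 rests on few counts and lost its call when any 1 library was left out. IGFBP6 was higher in every AHR line than in V, though not called in SD. IGFBP4, by far the most abundant of the binding proteins, moved little. Outside the 10 genes, the PAPPA inhibitors STC1 and STC2 were both higher in every AHR line than in V, although STC1 in WT did not pass the test.

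The libraries held 7844045 to 11765576 rounded expected counts, and values are given as normalized CPM, that is, counts scaled to a common library size, for which 3 counts correspond to 0.255 to 0.382 CPM. Endogenous and introduced AHR were read together, as the sum of AHR and the overlapping gene ENSG00000283321, and amounted to 69.1 ± 4.68 CPM in V against 469 ± 17.6 in WT, 394 ± 20.5 in SA and 296 ± 8.01 in SD (SD, n = 3 libraries). The amount of AHR mRNA thus differed between the 3 AHR lines together with its residue 489, and the effects of the amount and of the residue cannot be told apart. The keratins KRT8 and KRT18 and the cadherin CDH1 were expressed in all lines, whereas KRT19 and EPCAM were near 0 and the 4 alveolar type 2 markers (SFTPC, SFTPB, SFTPA1 and NKX2-1) summed to at most 0.507 CPM. The 5 epithelial markers summed to 6059 to 6297 CPM in V, 4819 to 4861 CPM in WT, 4654 to 4852 CPM in SA and 4383 to 4644 CPM in SD. The 4 fibroblast markers, almost entirely COL1A1 with DCN at 0, summed to 10.01 to 13.5 CPM in V, 5.70 to 7.40 CPM in WT, 7.50 to 8.25 CPM in SA and 7.61 to 10.01 CPM in SD. The 3 immune markers, almost entirely CD68 with CD3E at 0, summed to 21.7 to 28.4 CPM in V and to 27.8 to 36.9 CPM in the AHR lines, and the 3 endothelial markers reached at most 0.316 CPM with VWF at 0. The epithelial sum was higher in V than in each AHR line and lower in SD than in WT and SA, and the fibroblast sum was lower in WT than in SA and SD, without overlap. KRT8 and KRT18 made up nearly all of the epithelial sum. CDH1 was also lower in each AHR line than in V, but it did not share the fall in SD. Its SD mean of 126 CPM exceeded the means of WT (112) and SA (113). The SD libraries of CDH1 lay above all WT libraries and overlapped with SA, and neither difference passed the test. The shifts of the sums run with the comparisons against V and with SD against WT and SD against SA, and their part in the results was not tested. In bulk RNA, fewer cells that express a gene and less RNA per cell cannot be told apart.

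AHR binds DNA with its partner ARNT at response elements whose core reads GCGTG. RefSeq promoters (GRCh38.p14, 250 bases before to 50 after the start) were matched by symbol for 7 of the 10 genes, with 9 entries, and IGF2, IGFBP1 and IGFBP7 had none. The core was searched on both strands, so that it appears as GCGTG or as CACGC, and the 2 forms do not overlap one another in the sequences shown. At least 1 core was present in 36.5% of all promoters of this length, at least 3 in 4.3% and at least 4 in 1.63%. The promoters of 4 genes are shown 5′ to 3′ on the strand of the gene with the cores in capitals. They were picked because these genes carry the contrasts described below. PAPPA had the clearest difference between SD and WT, and IGF1R had the nearest profile among the other 9. IGFBP3 was a binding protein lower in WT than in V. IGFBP6 was the binding protein higher in every AHR line than in V, though not called in SD.
PAPPA, chr9:116153541-116153840, plus strand: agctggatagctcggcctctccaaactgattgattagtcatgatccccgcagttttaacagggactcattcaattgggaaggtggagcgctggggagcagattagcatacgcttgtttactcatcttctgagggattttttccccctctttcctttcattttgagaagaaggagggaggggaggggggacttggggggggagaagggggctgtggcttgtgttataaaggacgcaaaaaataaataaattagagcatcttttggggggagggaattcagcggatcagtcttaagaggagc
IGF1R, chr15:98648289-98648588, plus strand: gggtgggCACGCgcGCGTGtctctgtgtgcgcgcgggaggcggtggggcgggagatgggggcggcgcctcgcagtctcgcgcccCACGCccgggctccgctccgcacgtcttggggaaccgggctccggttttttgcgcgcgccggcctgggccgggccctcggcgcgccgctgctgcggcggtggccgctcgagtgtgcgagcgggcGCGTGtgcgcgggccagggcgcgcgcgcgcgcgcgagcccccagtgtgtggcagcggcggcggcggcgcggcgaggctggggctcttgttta
IGFBP3, chr7:45921223-45921522, minus strand: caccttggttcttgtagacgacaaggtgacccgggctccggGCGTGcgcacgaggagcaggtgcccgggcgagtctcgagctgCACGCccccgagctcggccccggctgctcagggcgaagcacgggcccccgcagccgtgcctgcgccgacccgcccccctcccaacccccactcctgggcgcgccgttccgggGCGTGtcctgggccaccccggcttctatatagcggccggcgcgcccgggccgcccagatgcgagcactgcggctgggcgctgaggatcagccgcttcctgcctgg
IGFBP6, chr12:53097417-53097716, plus strand: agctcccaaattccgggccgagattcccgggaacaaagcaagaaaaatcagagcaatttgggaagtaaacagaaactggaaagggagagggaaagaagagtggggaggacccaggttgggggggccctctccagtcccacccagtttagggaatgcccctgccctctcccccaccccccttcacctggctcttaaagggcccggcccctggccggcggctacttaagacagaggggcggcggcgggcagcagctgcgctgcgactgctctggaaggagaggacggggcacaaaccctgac
IGF1R held 4 cores and IGFBP3 held 3, PAPPA and IGFBP6 held none, and so did IGFBP4 and IGF2R. One of the 3 IGFBP2 entries held 1. GC content was 48.7% in the PAPPA promoter, 61.7% in that of IGFBP6, 74.7% in that of IGFBP3 and 79.7% in that of IGF1R. A core is a match of letters and not a binding site, and its absence says only that these letters are not in this window. The starts used by RefSeq for IGFBP3 and IGFBP6 lie inside the gene spans of the deposited table.

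PAPPA (ENSG00000182752, chr9:116153791-116402321, plus strand, protein coding) had 320, 304 and 336 CPM in V, 246, 262 and 264 CPM in WT, 289, 281 and 276 CPM in SA, and 367, 341 and 334 CPM in SD. The means were 319.9 ± 15.8, 257 ± 9.89, 282 ± 6.64 and 347 ± 17.6 CPM. All SD libraries lay above all WT and SA libraries, all WT libraries lay below all others, and V and SD overlapped. With at least 1940 counts in every library, PAPPA was far above the counting floor.

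The log2 fold change of PAPPA was 0.43 (SE 0.056) for SD against WT and 0.31 (SE 0.057) for SD against SA. Against V it was -0.32 (SE 0.047) in WT, -0.19 (SE 0.050) in SA and 0.12 (SE 0.056) in SD, and for WT against SA it was -0.13 (SE 0.049). The pairwise fits called a gene when its adjusted p was under 0.05, and PAPPA was called in SD against WT, SD against SA, WT against V and SA against V. With any 1 library left out, the value for SD against WT stayed between 0.39 and 0.46 and that for WT against V between -0.35 and -0.28, and both were called in each of the 6 such fits. SD against SA was no longer called without SD 1, SD 2, SA 2 or SA 3, with values of 0.26 to 0.34 over the 6 fits. SA against V was no longer called without SA 2, SA 3, V 1 or V 3, with values of -0.22 to -0.16.

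**Figure D1:**
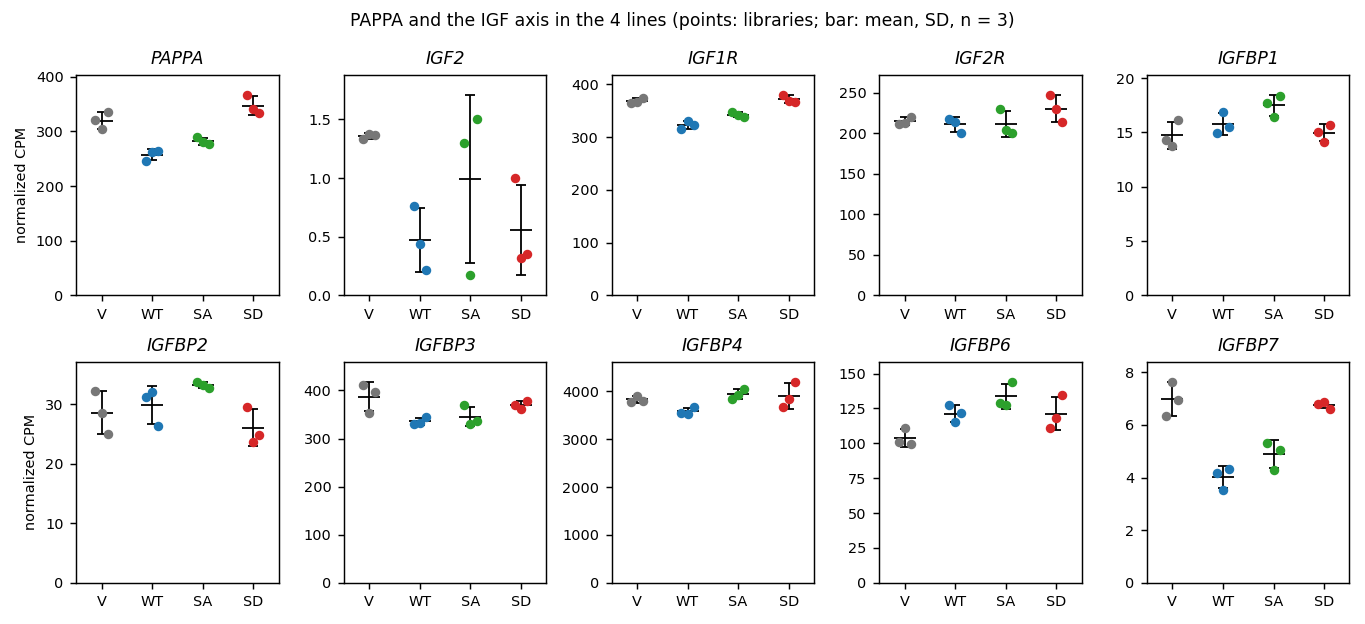
Normalized CPM (y axis, from 0, with a scale of its own in each panel) of the 10 IGF axis genes in the V, WT, SA and SD lines (x axis). Points are libraries and the bars are the mean and SD of 3; the 3 SD libraries of PAPPA, at 334 to 367 CPM, lie above the WT libraries at 246 to 264 CPM, and IGF2 stays at or below 1.51 CPM in every library.

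The antisense transcript PAPPA-AS1 (ENSG00000256040, chr9:116398157-116400606, minus strand) lies within the last part of the PAPPA gene: all 2450 of its exonic bases fall in the 3′ UTR of PAPPA. It had 69.4 ± 2.58 CPM in V against 56.4 ± 3.90 in WT, 58.1 ± 2.66 in SA and 75.7 ± 6.14 in SD. Its log2 fold change was 0.42 (SE 0.077, adjusted p = 0.00626, edgeR quasi-likelihood test with Benjamini-Hochberg adjustment, as for every adjusted p here) for SD against WT and 0.39 (SE 0.075, adjusted p = 0.0277) for SD against SA. The ratio of PAPPA to PAPPA-AS1 in CPM was 4.61 ± 0.076 in V against 4.57 ± 0.158 in WT, 4.87 ± 0.336 in SA and 4.60 ± 0.174 in SD. Whether strand was used in counting is not stated, and without it reads of the 2 transcripts cannot be told apart, so PAPPA-AS1 is no separate evidence. The call for SD against WT was lost without WT 1 (adjusted p 2.26e-05 to 0.0707 over its 11 other fits), and that for SD against SA without SD 1 or any 1 SA library (0.000464 to 0.163).

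PAPPA-AS2, a second antisense transcript, shares no exonic base with PAPPA exons and was too low to be tested. Its counts were 0, 1 and 0 in V, 1, 3 and 0 in WT, 0 in each SA library, and 7, 7 and 2 in SD. Apart from the 7 counts in SD 1 and in SD 2, all are at or below the floor of 3.

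STC1 and STC2, the secreted inhibitors of PAPPA, were read as part of a list of 73 further genes of the pathway. STC1 (ENSG00000159167) had 10.2, 10.2 and 7.90 CPM in V, 12.4, 14.7 and 11.6 CPM in WT, 18.5, 17.9 and 16.8 CPM in SA, and 21.2, 15.1 and 19.8 CPM in SD. All libraries of the AHR lines lay above all V libraries. STC1 rose 1.86-fold in SA (log2 0.90, SE 0.142, adjusted p = 9.58e-05) and 1.98-fold in SD over V (log2 0.99, SE 0.153, adjusted p = 0.000113). In WT the difference from V was 0.45 (SE 0.159, adjusted p = 0.101) and that of SD from WT was 0.53 (SE 0.143, adjusted p = 0.0917), and neither passed the test. The latter was called without SD 2 and when every gene with a count was tested.

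STC2 (ENSG00000113739) had 55.4, 52.3 and 54.7 CPM in V, 74.9, 77.3 and 68.0 CPM in WT, 74.8, 68.2 and 78.1 CPM in SA, and 64.5, 70.5 and 63.9 CPM in SD. It rose over V in every AHR line. The rise was 1.36-fold in WT (log2 0.44, SE 0.070, adjusted p = 0.000104), 1.36-fold in SA (log2 0.44, SE 0.071, adjusted p = 0.000147) and 1.22-fold in SD (log2 0.29, SE 0.073, adjusted p = 0.0148). The last was lost without SD 2, V 2 or V 3 (adjusted p 0.00959 to 0.11 over its 11 other fits), while all other calls of STC1 and STC2 were kept in all 11. PRG2, the eosinophil major basic protein, whose proform binds PAPPA in pregnancy, had 2 counts over the 12 libraries, and PAPPA2, the related protease, had 5.

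Levels of different genes were compared per kilobase of exon. On this scale the ratio of PAPPA to the sum of STC1 and STC2 was 2.13 ± 0.128 in V against 1.27 ± 0.118 in WT, 1.29 ± 0.069 in SA and 1.70 ± 0.065 in SD. V, at 2.05 to 2.28, lay above SD, at 1.66 to 1.78, and SD above WT and SA, whose libraries spanned 1.19 to 1.40 and 1.22 to 1.36. In WT, PAPPA was called lower than V and STC2 higher. In SA, PAPPA was called lower than V and both inhibitors higher. In SD, both inhibitors were called higher than V and PAPPA was not called. These are ratios of mRNA levels, and no protein or protease activity was measured.

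IGF2 (ENSG00000167244, chr11:2129112-2141238, minus strand) was near the floor, with 13 counts in each V library, 6, 5 and 2 in WT, 13, 2 and 17 in SA, and 10, 3 and 4 in SD. It was too low to be tested in the pairs of WT with SD and of WT with SA. Where it was tested its log2 fold changes ran from -1.53 (SE 0.534, WT against V) to -0.47 (SE 0.514, SA against V), and it was called in none. With 1 library left out, SA against V ran from -0.93 to 0.05, turning direction without SA 2, and SD against SA, at -0.80 (SE 0.649), ran from -1.49 to -0.34. The SA libraries alone spanned the whole range of the other lines. IGF1, which was not among the 10, had 4 counts over the 12 libraries, and INS and INS-IGF2 were at 0 in every library. Transcripts of the ligands were therefore scarce in all 4 lines.

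H19, the noncoding RNA of the imprinted locus beside IGF2 that is normally transcribed from the other parental allele, fell in every AHR line. It had 6.24, 6.26 and 5.59 CPM in V, 1.65, 2.12 and 3.20 CPM in WT, 2.30, 1.98 and 2.31 CPM in SA, and 2.30, 3.22 and 2.95 CPM in SD. Against V its log2 fold change was -1.37 (SE 0.275, adjusted p = 0.00194) in WT, -1.46 (SE 0.258, adjusted p = 0.000432) in SA and -1.09 (SE 0.247, adjusted p = 0.00645) in SD, and the 3 calls were kept in every other fit. No V library overlapped with any AHR library. H19 shares no exonic base with IGF2, and its counts ran from 13 to 61. The other transcripts that overlap or neighbour the 10 genes were at 0 (IGFBP7-AS1 and AIRN) or had 3 counts in all (IGF2-AS and IRAIN).

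IGF1R (ENSG00000140443, chr15:98648539-98964530, plus strand) had 365, 367 and 375 CPM in V, 316, 330 and 322 CPM in WT, 347, 342 and 338 CPM in SA, and 380, 368 and 367 CPM in SD. All WT libraries lay below all SA libraries, and all SA libraries below all V and SD libraries, while V and SD overlapped. Its log2 fold change was -0.20 (SE 0.042) for WT against V, which was called and stayed so without any 1 library at -0.20 to -0.18. For SD against WT it was 0.20 (SE 0.051) and not called. That value kept within 0.18 to 0.22 over the 11 other fits, of which 4 called it: testing every gene with a count, DESeq2, the fit of all 12 libraries and the replicate block. For SD against SA it was 0.12 (SE 0.053) and for SD against V 0.01 (SE 0.051).

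IGF2R (ENSG00000197081, chr6:159969099-160113507, plus strand) had 211, 213 and 221 CPM in V, 218, 214 and 201 CPM in WT, 230, 204 and 200 CPM in SA, and 248, 229 and 214 CPM in SD. The lines overlapped in all 6 pairs. Its log2 fold changes ran from -0.03 to 0.13 with SE of 0.047 to 0.067. Per kilobase of exon, the ratio of IGF2R to IGF1R was 0.359 ± 0.0033 in V against 0.403 ± 0.021 in WT, 0.380 ± 0.024 in SA and 0.382 ± 0.021 in SD. INSR, the insulin receptor, which can pair with IGF1R into hybrid receptors, had 18.6 ± 2.06 CPM in V and 15.3 to 15.6 CPM on average in the AHR lines. It did not pass the test in any pair, and its log2 fold changes from V were -0.26 (SE 0.124) in WT, -0.29 (SE 0.126) in SA and -0.25 (SE 0.131) in SD.

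IGFBP4 (ENSG00000141753, chr17:40443450-40457725, plus strand), the substrate of PAPPA, was the most abundant of the 10 genes, with 3777, 3910 and 3803 CPM in V, 3548, 3523 and 3671 CPM in WT, 3834, 3934 and 4059 CPM in SA, and 3663, 3846 and 4197 CPM in SD. WT lay below V and SA, without overlap, and SD spanned most of the range of the other lines. The log2 fold changes were -0.10 (SE 0.035) for WT against V and -0.13 (SE 0.043) for WT against SA, and none of the 6 pairs was called in the edgeR fits, although DESeq2 called WT against SA. Per kilobase of exon, IGFBP4 made up 90.6 ± 0.289% of the 6 binding proteins in V against 89.9 ± 0.206% in WT, 90.2 ± 0.363% in SA and 90.3 ± 0.200% in SD. Its level per kilobase was 63.0 ± 4.12 times that of PAPPA in V, 73.2 ± 2.62 times in WT, 73.5 ± 3.79 times in SA and 59.2 ± 6.78 times in SD. The WT and SA libraries, at 69.6 to 77.2, lay above the V and SD libraries, at 52.4 to 67.6.

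IGFBP3 (ENSG00000146674, chr7:45912245-45921874, minus strand), the main IGF carrier in serum, had 411, 353 and 398 CPM in V, 330.3, 332 and 344 CPM in WT, 369, 331 and 337 CPM in SA, and 370.3, 362 and 379 CPM in SD. WT lay below V and below SD, and V overlapped with SA and SD. The log2 fold change of WT against V was -0.21 (SE 0.050) and was called, except without V 1, with -0.27 to -0.16 over the leave-outs. SA against V was -0.17 (SE 0.056) and not called, except without SA 1 or V 2, when every gene with a count was tested, or with the replicate block. SD against WT was 0.14 (SE 0.052) and not called in any fit.

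IGFBP6 (ENSG00000167779, chr12:53097436-53102345, plus strand), which prefers IGF2 to IGF1, went the other way. It had 101, 111 and 99.3 CPM in V, 127, 115 and 122 CPM in WT, 129, 128 and 144 CPM in SA, and 111, 118 and 135 CPM in SD. All libraries of the AHR lines lay above all V libraries, SD 1 by the least. The log2 fold change from V was 0.36 (SE 0.062) in SA, called in every fit, and 0.22 (SE 0.059) in WT, called but lost without WT 1, WT 3, V 1 or V 3, in the fit of all 12 libraries and with the replicate block. In SD it was 0.23 (SE 0.069) and not called, except without SD 1 or when every gene with a count was tested. The share of IGFBP6 among the 6 binding proteins per kilobase was 4.02 ± 0.180% in V against 4.99 ± 0.241% in WT, 5.01 ± 0.214% in SA and 4.59 ± 0.140% in SD.

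IGFBP7 (ENSG00000163453, chr4:57030773-57110385, minus strand), a matrix-associated relative that binds IGFs weakly, was low. It had 6.34, 7.63 and 6.96 CPM in V, 4.18, 3.54 and 4.31 CPM in WT, 5.30, 4.30 and 5.05 CPM in SA, and 6.78, 6.86 and 6.61 CPM in SD. WT and SA lay below V and SD without overlap, and WT had the lowest mean, as for PAPPA, on counts of 33 to 74. The log2 fold change was -0.81 (SE 0.225) for WT against V, which was called. That call was lost when any 1 of the 6 libraries was left out, with DESeq2 and with the replicate block, at values of -0.87 to -0.71. SD against WT was 0.76 (SE 0.215), SA against V was -0.52 (SE 0.210) and SD against SA was 0.47 (SE 0.199), and none of these was called in any fit.

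IGFBP1 (ENSG00000146678, chr7:45888360-45893660, plus strand), the neighbour of IGFBP3 on chromosome 7 and best known as a secreted product of liver, had 13.8 to 16.1 CPM in V, 14.95 to 16.9 CPM in WT, 16.4 to 18.4 CPM in SA and 14.2 to 15.7 CPM in SD. SA lay above V and SD without overlap, at log2 values of 0.24 (SE 0.124) over V and -0.22 (SE 0.120) for SD against SA. IGFBP2 (ENSG00000115457, chr2:216632828-216664436, plus strand), a binding protein of fetal and tumour tissue, had 24.97 to 32.2 CPM in V, 26.3 to 32.1 CPM in WT, 32.7 to 33.7 CPM in SA and 23.7 to 29.5 CPM in SD. SA lay above the other 3 lines, and SD was -0.35 (SE 0.098) on the log2 scale from SA. Neither gene was called in any pair. IGFBP5, which was not among the 10, had 22 counts over the 12 libraries.

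Ordered by their mean level per kilobase of exon over all libraries, the 10 genes ran from IGFBP4 at 1730 CPM per kilobase through IGFBP6 at 89.1, IGFBP3 at 78.7, PAPPA at 26.0, IGF1R at 25.2, IGF2R at 9.59, IGFBP1 at 9.59, IGFBP2 at 6.20 and IGFBP7 at 2.93 to IGF2 at 0.118. The neighbours IGFBP6 and IGFBP3 exchanged places when the longest transcript was used as the length (102 against 137), and so did PAPPA and IGF1R (27.5 against 28.7). PAPPA and IGF1R differed by less than the larger of their SDs in V and in SA, at 24.4 ± 0.575 and 24.6 ± 0.327 CPM per kilobase in SA, and so did IGF2R and IGFBP1 in V and in WT. Among the PAPPA inhibitors, STC2 stood at 13.2 and STC1 at 3.55 CPM per kilobase, both below PAPPA.

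**Figure D2:**
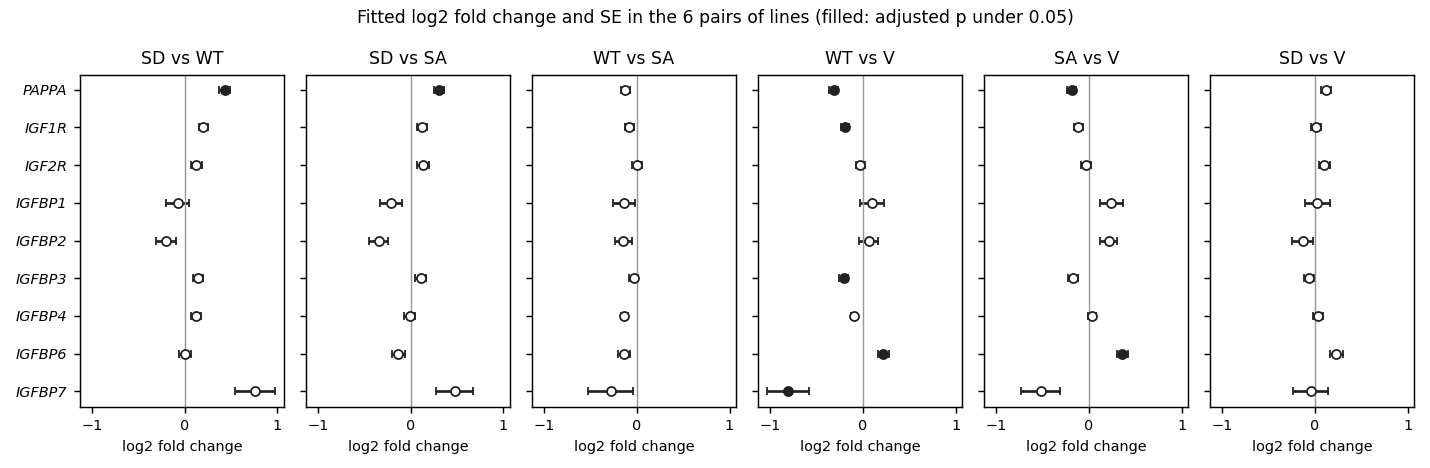
Fitted log2 fold change (x axis) of 9 IGF axis genes (rows) in the 6 pairs of lines (panels), with the SE as bars and filled points where the adjusted p was under 0.05. IGF2 is left out because it was not tested in 2 pairs; PAPPA is the only filled point in SD vs WT and SD vs SA, and 5 points are filled in WT vs V.

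Over the 10 genes together, 5 were called in at least 1 pair. The share of all genes called in at least 1 pair was not worked out, so nothing is read from this count. In SD against WT, 1 of 9 tested was called, with 0.708% of all genes called, and the libraries of 4 did not overlap, against 16.0% of all genes. In SD against SA, 1 of 10 was called (0.220% of all genes) and 5 did not overlap (13.5%). In WT against SA, 0 of 9 were called by edgeR (0.0803% of all genes) and 5 did not overlap (13.0%). An unadjusted p under 0.05 was found for 3, beside 1093 of all 14942 genes tested. DESeq2 called 1 (IGFBP4), beside 18 over all genes. Since the genes were chosen with these contrasts known, nothing is read from these shares.

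The 3 comparisons with V share the V libraries, and so are not independent of each other. In WT against V, 5 of 10 were called, 1 higher and 4 lower, with 5.24% of all genes called, and 7 did not overlap (21.8%). In SA against V, 2 of 10 were called, IGFBP6 higher and PAPPA lower (7.17%), and 6 did not overlap (23.8%). In SD against V, 0 of 10 were called by edgeR (5.41% of all genes) or by DESeq2 (618 calls over all genes). An unadjusted p under 0.05 was found for 3, beside 2592 of all 14890 genes tested. The libraries of 2 did not overlap (21.4%), namely IGF2 and IGFBP6. The median log2 fold change of the tested genes was 0.13 in SD against WT, 0.05 in SD against SA, -0.13 in WT against SA, -0.15 in WT against V, -0.07 in SA against V and 0.02 in SD against V, where the median over all genes tested lay between -0.002 and 0.003.

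The further 73 genes of the pathway fell into 9 lists, of ligands, receptors, binding protein relatives, proteases with PAPPA inhibitors, IGF2 mRNA-binding proteins, adaptors, the PI3K, AKT and mTOR pathway, FOXO factors with their targets, and overlapping or neighbouring transcripts. Of these, 56 were tested in at least 1 pair, 11 were called in at least 1 and 7 were at 0 in all libraries. Shares of all genes are given by pair, and the count of 11 has no such share beside it. In SD against WT 2 of 55 rose and none fell (3.64%, beside 0.708% of all genes), and in SD against SA 2 of 56 rose (3.57%, beside 0.220%). In both pairs these were C1S and PAPPA-AS1, the second of which lies within exons of PAPPA. In WT against SA 0 of 56 were called by edgeR or by DESeq2, which called 12 and 18 over all genes. An unadjusted p under 0.05 was found for 5 of the 56, beside 1093 of all 14942 genes tested. Against V, 3 rose and 2 fell in WT (8.93% of 56, beside 5.24%), 6 rose and 4 fell in SA (17.9% of 56, beside 7.17%), and 7 rose and 2 fell in SD (16.4% of 55, beside 5.41%). The median over the list was 0.05, 0.04, -0.001, 0.01, 0.03 and 0.05 in the same order of pairs.

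Of the 10 genes in the list of proteases and PAPPA inhibitors, 7 were tested. Relative to V, 2 of them rose in WT (5.24% of all genes were called), 4 did so in SA (7.17%) and 5 in SD (5.41%), and none fell. Of the 5 in SD, C1S lost its call in 5 and STC2 in 3 of the 6 leave-outs. ADAM12, a metalloproteinase that can cut IGFBP3 and IGFBP5, had 38.4 to 41.3 CPM in V, 55.4 to 61.0 in WT, 57.5 to 62.1 in SA and 65.5 to 70.3 in SD. It rose 1.44-fold in WT (log2 0.53, SE 0.076, adjusted p = 2.62e-05), 1.49-fold in SA (log2 0.57, SE 0.074, adjusted p = 6.47e-06) and 1.70-fold in SD (log2 0.77, SE 0.075, adjusted p = 1.06e-07) over V, in every fit. SD lay above WT and SA without overlap, but these differences of 0.24 (adjusted p = 0.16) and 0.19 (adjusted p = 0.425) did not pass the test.

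CTSD, the lysosomal protease cathepsin D, had 596 to 638 CPM in V, 656 to 690.2 in WT, 711 to 784 in SA and 741 to 803 in SD. It rose over V in SA (log2 0.27, SE 0.048, adjusted p = 0.000461) and in SD (log2 0.34, SE 0.053, adjusted p = 0.000148), in every fit. In WT it differed from V by 0.12 (SE 0.041, adjusted p = 0.0848). SD against WT gave 0.21 (SE 0.053, adjusted p = 0.0673), which 4 of the 11 other fits called (DESeq2, all 12 libraries in 1 fit, every gene with a count, and the replicate block).

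C1S, a serine protease of the complement system that can cut IGFBP5, was, beside PAPPA-AS1, the one gene of the 73 called between SD and the other AHR lines. It had 43.1 to 48.9 CPM in V, 37.9 to 44.6 in WT, 40.9 to 45.3 in SA, and 63.5, 62.0 and 49.7 in SD. Its log2 fold change was 0.49 over WT (SE 0.093, adjusted p = 0.00774), 0.45 over SA (SE 0.090, adjusted p = 0.0345) and 0.32 over V (SE 0.090, adjusted p = 0.0308). SD 3 stood well below the other SD libraries. The calls were lost without SD 2, WT 1 or WT 3 (adjusted p 4.56e-06 to 0.0665 over the 11 other fits), without SD 1, SD 2, SA 2 or SA 3 (9.35e-05 to 0.209), and in 5 of 6 leave-outs and DESeq2 (0.00164 to 0.182). ADAM9, the most abundant of the metalloproteinases in the list that were tested, averaged 449.8 to 480.4 CPM in the 4 lines and HTRA1, a serine protease that can cut IGFBPs, 34.9 to 41.2 CPM, and neither was called in any pair.

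**Figure D3:**
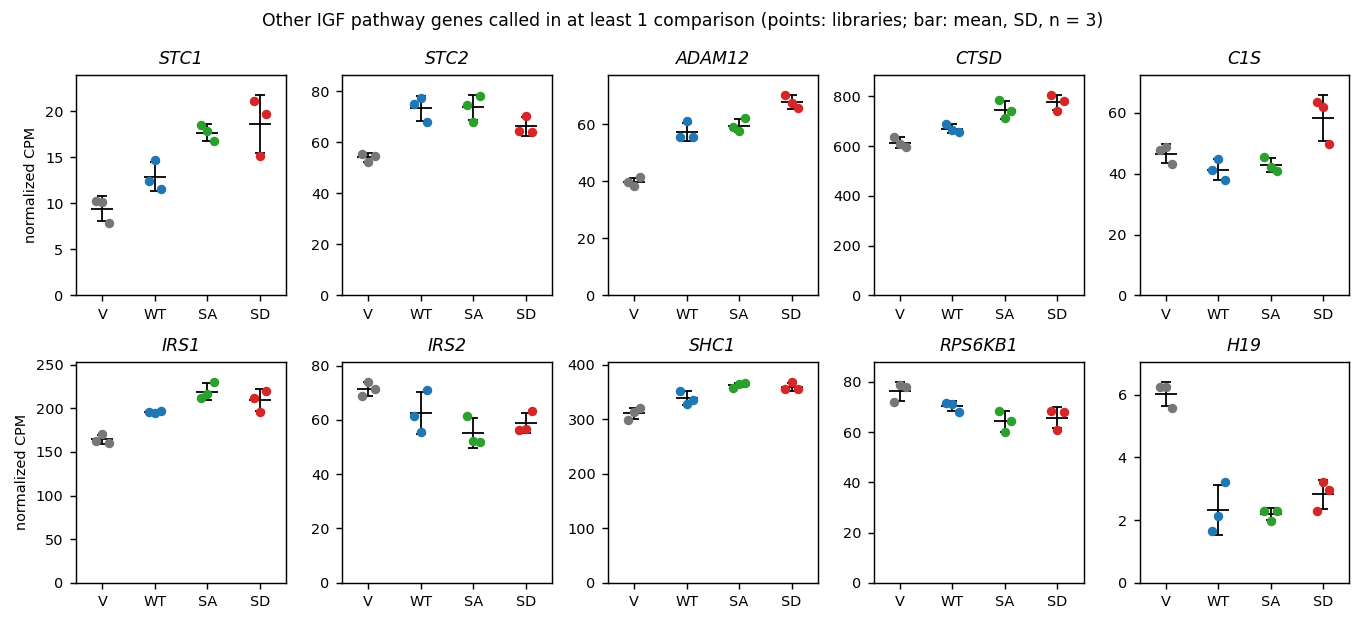
Normalized CPM (y axis, from 0, with a scale of its own in each panel) in the V, WT, SA and SD lines (x axis) of the 10 further pathway genes called in at least 1 pair, PAPPA-AS1 not shown. Points are libraries and bars are the mean and SD of 3. STC1, STC2, ADAM12, CTSD, IRS1, SHC1, RPS6KB1 and H19 separate all V libraries from those of the AHR lines, RPS6KB1 only narrowly from WT. C1S has 2 SD libraries at 62.0 and 63.5 CPM and 1 at 49.7 CPM.

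Downstream of the receptor, IRS1, the adaptor that links IGF1R and INSR to PI3K, had 160 to 171 CPM in V, 195 to 197 in WT, 211 to 230.3 in SA and 196 to 220 in SD. It rose over V in WT (log2 0.25, SE 0.049, adjusted p = 0.00124), SA (log2 0.41, SE 0.053, adjusted p = 5.75e-06) and SD (log2 0.35, SE 0.058, adjusted p = 0.000255), in every fit. IRS2, its relative, had 69.0 to 74.0 CPM in V, 55.4 to 70.9 in WT, 51.7 to 61.5 in SA and 56.5 to 63.1 in SD. It fell in SA (log2 -0.38, SE 0.075, adjusted p = 0.00132) in every fit and in SD (log2 -0.28, SE 0.071, adjusted p = 0.0172), the latter lost without SD 1, SD 2, V 2 or V 3 and in the fit of all 12 libraries (0.00976 to 0.0991). The 2 adaptors thus moved in opposite directions from V in SA and SD.

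SHC1, the adaptor that leads from the receptor to RAS, had 299 to 320 CPM in V, 328 to 352 in WT, 358 to 366 in SA and 355 to 368 in SD. It rose over V in SA (log2 0.22, SE 0.047, adjusted p = 0.00351), except without V 1 (0.000179 to 0.0527 over its other fits), and in SD (log2 0.21, SE 0.052, adjusted p = 0.0134), except without SD 2, V 1 or V 2 (0.00246 to 0.132). Of the 20 genes of the PI3K, AKT and mTOR list, all of which were tested, 1 was called in any pair, in SA against V, where 7.17% of all genes were called. This was RPS6KB1, the S6 kinase downstream of mTOR, with 71.9 to 78.8 CPM in V and 60.1 to 68.5 in SA. Its fall in SA (log2 -0.25, SE 0.070, adjusted p = 0.0249) was lost without SA 2, SA 3, V 2 or V 3 (0.00968 to 0.161). In the lists of receptors, binding protein relatives, IGF2 mRNA-binding proteins and FOXO factors with their targets, edgeR and DESeq2 called 0 genes in any pair, and 1, 1, 1 and 4 genes had an unadjusted p under 0.05 in at least 1 pair. How many of all genes had such a p in at least 1 pair was not worked out. IGF2BP2, which binds IGF2 mRNA, was called in SA against V (log2 0.31, SE 0.101, adjusted p = 0.0563) only without SA 1, without V 2 or with the replicate block.

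The genes whose profile over the 12 libraries was most like that of PAPPA were ranked by the root mean square difference of centred log2 CPM among 15452 genes. The nearest was PAPPA-AS1 (0.0625), whose exonic bases lie within those of PAPPA, followed by SMOC1 (0.0721), SLC2A3 (0.0766), SLC23A2 (0.0792) and TMEM242 (0.0794). SMOC1, a secreted calcium-binding matrix protein, had 44 ± 0.994 CPM in V against 33.8 ± 1.93 in WT, 35.7 ± 2.11 in SA and 43.7 ± 2.01 in SD. SLC2A3, the glucose transporter GLUT3, had 52.8 ± 5.84, 42.4 ± 1.14, 46.2 ± 0.273 and 52.8 ± 1.62 CPM in the same order of lines. SLC23A2, a vitamin C transporter, had 155 ± 17.0, 131 ± 9.02, 136 ± 3.25 and 158 ± 10.4 CPM, and the membrane protein gene TMEM242 had 10.1 ± 0.349, 8.62 ± 0.710, 9.77 ± 0.150 and 11.6 ± 0.172 CPM.

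Among the other 9 IGF axis genes, IGF1R came nearest to PAPPA, at rank 11 with a difference of 0.0925. IGFBP3 ranked 96, IGF2R 346, IGFBP4 1168, IGFBP7 5202, IGFBP1 8584, IGFBP6 10394, IGFBP2 11180 and IGF2 15160. IGFBP7 was also lower in WT and SA than in V and SD, but over a wider range than PAPPA, and the measure counts a difference in range as distance. Spread between the libraries of a line adds to the distance as well, and IGFBP7 rests on 33 to 74 counts. IGF2R, whose lines overlapped in all 6 pairs, and IGFBP4, which edgeR called in none, ranked nearer than IGFBP7. A near rank is therefore not by itself a shared pattern. The ranking is a description over 12 libraries of 4 lines, and libraries of 1 line share that line.

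**Figure D4:**
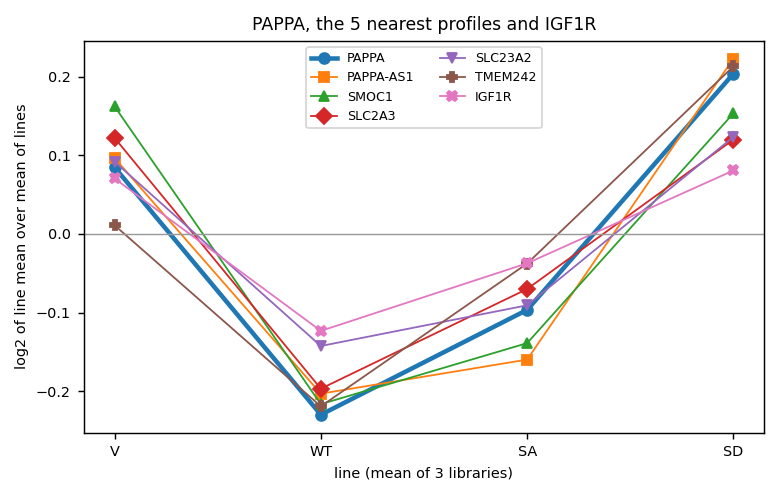
Log2 of each line's mean CPM over the mean of the 4 lines (y axis) for PAPPA, its 5 nearest profiles and IGF1R across V, WT, SA and SD (x axis; points are means of 3 libraries, without error bars). All 7 genes are lowest in WT and higher in V and SD than in SA, and IGF1R, at rank 11, has the smallest range.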

How the data were processed

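Poly(A) RNA from 12 libraries of 4 A549 lines was sequenced. Reads had been trimmed with Trimmomatic 0.39 and assigned to GRCh38 transcripts with RSEM, and the authors deposited unnormalized expected counts per gene; the annotation release and the use of strand are not given in the sources used here. A second deposited table holds the authors' own fold changes, p-values and q-values for ordered genes and was not used. The 10 genes and all lists were chosen with earlier results of these data known.

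Expected counts, of which 3.24 to 3.61% were not whole, were rounded and fitted for each pair of lines on its 6 libraries with edgeR 4.0.16 in R 4.3.3 (filterByExpr, minimum count 10 and minimum total 15, TMM, two-sided quasi-likelihood test, Benjamini-Hochberg adjustment over all genes tested, threshold 0.05). TMM factors were 0.989 to 1.01. CPM values use TMM library sizes. Values per kilobase use the exons of GENCODE 44, in which 8 of the 10 genes have the deposited start and end. No 2 libraries of a line were copies. Alternatives were DESeq2 1.42.0 and its size factors, no filter beyond 1 count, all 12 libraries in 1 fit, the replicate number as a block, and each library left out. Named besides the 10 genes were the pathway genes with an adjusted p under 0.05 in any pair, the PAPPA inhibitors, IGF1, IGFBP5, INSR, overlapping or neighbouring transcripts, AHR, and the 5 profiles nearest to PAPPA (log2 CPM, prior count 2); the others were chosen after their values were seen. Data were simulated for SD against WT with a single dispersion set for every gene and not estimated from these libraries. On them the test recovered 160 of 195 changed genes with 11 false calls, and 53% of the 1.5-fold changes. These shares hold for that dispersion, and the real data may differ. The labels call the libraries biological replicates, and nothing says that they came from separate derivations of a line, so p-values measure the spread between these libraries.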

Additional observations from a re-analysis of the deposited data

How the results depend on the processing

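Directions were kept in all alternatives for every called value. The number of genes called depended on the filter and the block. Testing every gene with at least 1 count gave 252 calls in place of 105 in SD against WT, 153 in place of 33 in SD against SA and 103 in place of 12 in WT against SA, and 4 in place of 2 genes of the pathway list in SD against WT. All 12 libraries in 1 fit gave 5 calls in WT against SA. With 1 library left out, the calls ran from 45 to 145 in SD against WT, 11 to 56 in SD against SA, 2 to 25 in WT against SA, 434 to 720 in WT against V, 621 to 1195 in SA against V and 502 to 856 in SD against V, and those of the pathway list from 0 to 3 in SD against WT, 0 to 2 in SD against SA and 5 to 9 in SD against V. The pathway list lost both calls in SD against WT without WT 1, and both in SD against SA without SD 1, SA 2 or SA 3, and in SD against V it fell to 5 without SD 2 or V 2. IGF2 moved to -1.96 without WT 1 in WT against V and to -1.96 without SD 1 in SD against V.

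Same-numbered libraries are linked in the labels by a number alone. The correlations of their deviations from the line means, taken over all genes kept, were -0.04 to 0.11 over 18 pairs, with 1 above 0.1. Such a correlation over many genes does not tell whether some genes vary together in same-numbered libraries. The replicate block changed the calls to 245 in SD against WT, 165 in SD against SA, 25 in WT against SA and 507 in WT against V (774 without it). The cause of these shifts was not tested. At 3 libraries a line, changes of under 1.5-fold, the size of most differences described here, can be missed. Some were called, such as SHC1 at 1.16-fold in SD against V. How often such changes are missed in these libraries was not tested. IGF2, IGFBP7 and H19 rest on few counts.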
